A study of Mus musculus with 2 samples.

Results

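Foxd1 mesenchymal cells were defined as cells that express the forkhead transcription factor gene Foxd1 together with the fibrillar collagen gene Col3a1 and that lack the main transcripts of cartilage, tendon, distal limb and vessel. A barcode with at least 1000 UMIs (unique molecular identifiers, each standing for 1 captured transcript) and at most 10% of them in mitochondrial genes was kept. It became a member when it held at least 2 UMIs of Foxd1 and at least 3 of Col3a1, fewer than 10 of Acan, Col9a1 and Matn1 together, fewer than 5 of Tnmd and Scx together, and 0 of Hoxd13, Pecam1 and Cdh5. This gave 1220 members among 22086 kept cells, out of 27766 barcodes in all. The members were thus chosen by their own counts, so that the levels of the genes in the rule describe the choice and are no finding.

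The cells came from E14 mouse embryos without heads and viscera, and were sorted for tdTomato (tdT), a red reporter that Myf5-Cre switches on in Myf5-expressing cells and all of their descendants. The reporter therefore marks a lineage history and not current Myf5 expression. One library was titled SRSF2f/f/Myf5-Cre/tdT, in which both copies of the splicing factor gene Srsf2 were floxed (the mutant, MKO/tdT), and the other SRSF2f/w/Myf5-Cre/tdT, in which 1 copy was floxed (the control, Het/tdT). Both libraries carry Myf5-Cre, tdT and at least 1 floxed Srsf2 allele. The number of embryos per library is not given in the sources used here.

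The library labelled f/f held 15268 barcodes and 156093779 UMIs, of which 12144 barcodes were kept, with 513 members. The library labelled f/w held 12498 barcodes and 128116615 UMIs, of which 9942 barcodes were kept, with 707 members. Members had a median of 9249 UMIs in the library labelled f/f and 9686 in the library labelled f/w, so depth in the members was alike. Across the libraries 74 barcode sequences occurred in both, but no sequence was a member in both. Each genotype was 1 library, so no test between libraries was possible and no p-value is given. Intervals in brackets are exact 95% intervals, and those of a ratio of shares are log intervals. They cover counting error and not the spread between embryos. Those of levels and of ratios of levels treat UMIs as independent, and so leave out the spread between cells as well.

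The labels were first checked against the targeted gene. Srsf2 (ENSMUSG00000034120, GRCm38 chr11:116849901-116853094, minus strand) encodes a serine/arginine-rich splicing factor. In the members its level was 207 CPM (UMIs of the gene per 1000000 UMIs of the same cells; 196 to 219) in the library labelled f/f and 155 CPM (146 to 164) in the library labelled f/w. Over all kept cells the levels were 219 and 153 CPM. The gene was thus higher in the library titled as the mutant, which goes against its title. The run summary deposited with that library is named as the wild type, and the headings of the study's quality-control panels also place it as Het/tdT. Set beside the study's text, the number of retained cells has the order of the titles, and the share of myogenic cells has the reverse order, by a wide margin. Myogenic cells numbered 2400 of 12144 in the library labelled f/f and 129 of 9942 in the library labelled f/w. Groups are named here by their titles as "labelled f/f" and "labelled f/w", every direction between libraries is given by title, and each would change its sign under the other assignment. The study's scheme draws loxP sites on both sides of Srsf2 without naming exons, and only transcript 3′ ends were read, so the level was not used to count recombined cells. As a log2 ratio (f/w over f/f), the difference for Srsf2 in the members was -0.42 (-0.54 to -0.30). Of the 2 genes that share its locus on the opposite strand, Mettl23 had a ratio of -0.60 and Mfsd11 one of 0.25.

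Foxd1 is best known as a marker of stromal progenitors, above all in the kidney, and of dermal and other fibroblast lineages. Pax1 and Pax9 are paired-box factors of the sclerotome, the part of the somite that forms vertebrae, discs and ribs under hedgehog signals from the notochord and floor plate. Ntrk2 encodes TrkB, the receptor of brain-derived neurotrophic factor, which embryonic mesenchyme can also express.

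In the members Foxd1 (GRCm38 chr13:98354242-98359305) ranged from 2 to 15 UMIs per cell with a median of 3 in the library labelled f/f, and from 2 to 19 with a median of 3 in the library labelled f/w. Its level was 316 CPM (301 to 331) and 326 CPM (314 to 339). Of the kept barcodes with at least 2 Foxd1 UMIs, 964 in the library labelled f/f and 1473 in the library labelled f/w, 53.2% and 48.0% became members. Of these barcodes 245 and 381 were over the limit on cartilage genes, 139 and 305 under that on Col3a1 and 116 and 233 over that on vessel genes. Just outside the Foxd1 limit, 536 and 519 cells met every other condition with exactly 1 Foxd1 UMI. Just inside, 218 and 272 members held exactly 2.

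The other genes of the label, Pax1 and Ntrk2, were then measured. Pax1 (chr2:147361925-147393295) was at 48.4 CPM in both libraries, with intervals of 42.9 to 54.5 in the library labelled f/f and 43.7 to 53.5 in the library labelled f/w. In mesenchymal cells that met the rest of the rule with no Foxd1 UMI (Foxd1-negative mesenchyme, 5124 and 2014 cells), it was at 7.39 CPM and 14.9 CPM. Ntrk2 (chr13:58806569-59133970) was at 56.0 and 55.9 CPM in the members and at 20.1 and 28.2 CPM in the Foxd1-negative mesenchyme. Pax9 (chr12:56691767-56712822) was at 26.3 and 30.7 CPM in the members and at 4.42 and 8.81 CPM in the Foxd1-negative mesenchyme. All 3 genes were higher in the members in both libraries, Pax1 by 6.56-fold (5.62 to 7.63) in the library labelled f/f and 3.25-fold (2.79 to 3.78) in the library labelled f/w. For Pax9 the folds were 5.96 and 3.48, and for Ntrk2 2.79 and 1.98.

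A UMI of each of these markers was found in a minority of members. A Pax1 UMI was present in 132 of 513 members labelled f/f, 25.7% (22.0 to 29.7), and in 176 of 707 labelled f/w, 24.9% (21.7 to 28.3). After each cell had been thinned to 5000 UMIs, which left 484 and 667 members, the shares were 15.3% (12.2 to 18.8) and 17.7% (14.9 to 20.8). The same measure gave 3.38% and 4.66% in the Foxd1-negative mesenchyme. Endothelial cells should lack Pax1, and 1.65% and 1.74% of them held a UMI at 5000 UMIs, which sets the level that free RNA can give. Foxd1 itself was found in 4.68% and 4.197% of these cells. Their median depth before thinning was 15277 and 17957 UMIs. The share of members with Pax1 was above that of the endothelial cells, but at 5000 UMIs 60.1% (55.6 to 64.5) and 62.2% (58.4 to 65.9) of the members held no UMI of Pax1, Pax9 or Ntrk2. At these levels a cell of 5000 UMIs can hold no UMI of a gene that it expresses, so these shares do not count the cells that express the genes, and the label "Foxd1, Pax1, Ntrk2" was measured as a summed profile.

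Detection of Pax9, but not clearly that of Ntrk2, differed with detection of Pax1 in the same cell. At 5000 UMIs, Pax9 was detected in 33.8% (23.2 to 45.7) of the members labelled f/f with a Pax1 UMI and in 8.78% (6.23 to 11.9) of those without one. In the library labelled f/w these shares were 27.1% (19.3 to 36.1) and 7.83% (5.73 to 10.4). Ntrk2 was detected in 24.3% (15.1 to 35.7) of the members with Pax1 and 22.9% (18.9 to 27.3) of those without it in the library labelled f/f, and in 20.3% and 18.8% in the library labelled f/w. The intervals for Ntrk2 overlapped in both libraries, those for Pax9 in neither. These are counts of cells of 1 library and describe it only.

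**Figure D1:**
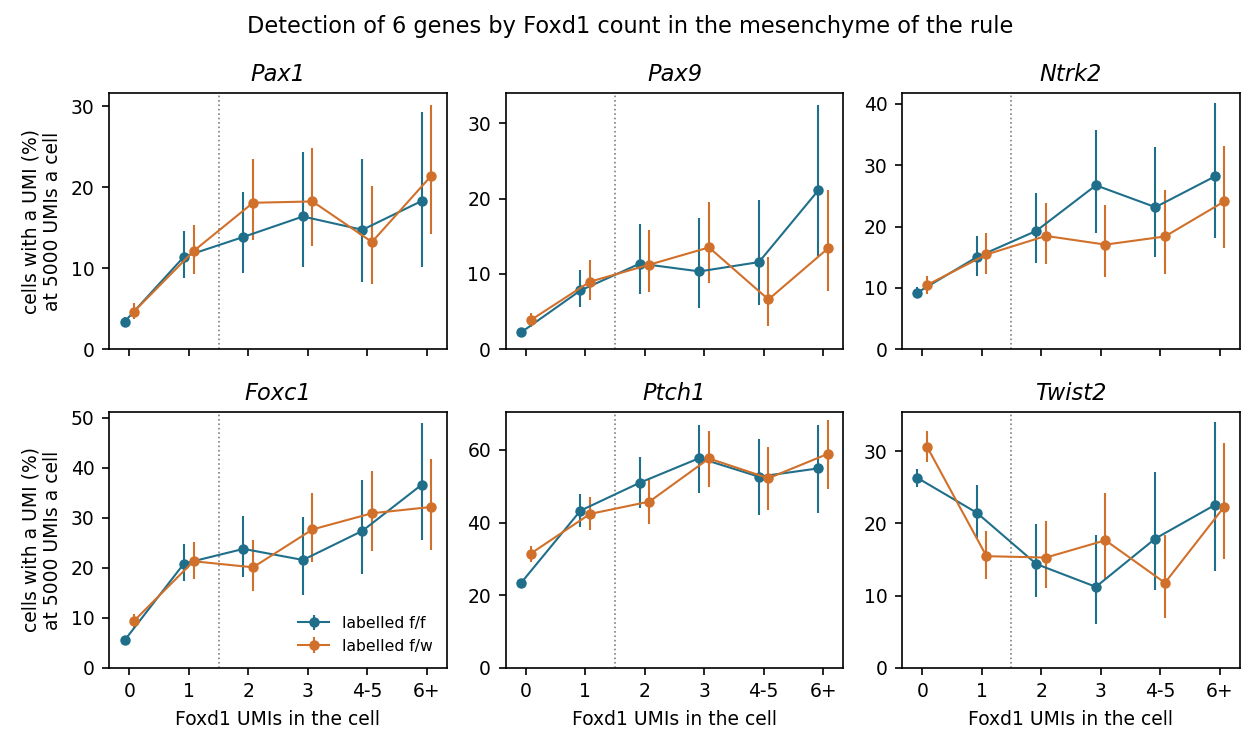
Share of cells with a UMI of each of 6 genes (y axis, percent, each cell thinned to 5000 UMIs) by the number of Foxd1 UMIs in the cell (x axis) among cells that met the rest of the rule, with exact 95% intervals; cells right of the dotted line are members. Pax1 was detected in 3.38% and 4.66% of cells with no Foxd1 UMI and in 18.3% and 21.4% of those with 6 or more, whereas Twist2 was found most often in cells with none.

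The detection of these genes did not begin at the limit of 2 UMIs. Among cells with exactly 1 Foxd1 UMI, Pax1 was detected in 11.4% and 12.1% at 5000 UMIs, between the 3.38% and 4.66% of cells with none and the 13.9% and 18.1% of cells with 2. Foxc1 went from 5.47% and 9.38% at 0 UMIs over 20.8% and 21.3% at 1 UMI to 36.6% and 32.1% at 6 or more. Ntrk2 was detected in 9.25% and 10.5% at 0 UMIs, 15.03% and 15.4% at 1 UMI and 28.2% and 24.1% at 6 or more. Since a cell of 1 class can fall into neighbouring bins by sampling of its transcripts, these bins cannot tell a graded population from separate classes. Members were in turn a minority of the Pax1 cells. Of the mesenchymal cells of the rule with at least 2 Pax1 UMIs, 31.8% (25.01 to 39.2) of 176 in the library labelled f/f and 42.5% (35.4 to 49.8) of 193 in the library labelled f/w were members. Among those with 0 Pax1 UMIs the shares were 6.73% and 18.9%.

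The expression profile of the members was compared with the Foxd1-negative mesenchyme of the same library, to see what they share beyond the rule. Of 12392 genes with at least 50 UMIs in both populations together in each library, 150 (1.21%) differed by at least 2-fold in the same direction in both libraries. Of these 49 (0.395%) were higher in the members, Foxd1 among them, and 101 (0.815%) were lower. Both comparisons use libraries without replicates, so "higher" and "lower" here mean a fold and no test. Bulk sums of a population cannot tell more cells with a transcript from more transcript per cell. The Foxd1-negative mesenchyme was not cleared of myogenic cells, and the level of its myogenic genes differed between the libraries, as given below.

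The higher genes included transcription factor genes. Foxd2os (chr4:114909257-114921967), a noncoding RNA gene on the plus strand that starts 383 bases from the start of Foxd2 on the minus strand, was at 14.5 and 17.7 CPM in the members and at 2.35 and 3.81 CPM in the Foxd1-negative mesenchyme. Foxd2 itself, the paralog of Foxd1, was higher by 6.69-fold (4.14 to 10.7) and 4.34-fold (2.84 to 6.70). Foxc1 (chr13:31806633-31812476), a forkhead factor of paraxial and cranial mesoderm, was at 67.4 and 66.5 CPM against 12.2 and 20.8 CPM, 5.54-fold and 3.21-fold higher. Its partner Foxc2 was 5.83-fold and 2.87-fold higher. Zic2, a zinc finger factor of the neural tube and dorsal somite, was 7.66-fold (5.68 to 10.3) and 3.62-fold (2.81 to 4.68) higher, and Zic5, whose gene lies 9757 bases from it on chr14, was also among the 49. Mecom and Prdm6, which encode zinc finger proteins, and Nkx6-1 and Uncx, homeobox genes of which the latter marks the posterior sclerotome, were also in this class. Zic5 and Nkx6-1 were picked for mention after their values were seen.

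Of the sclerotome and girdle list, 14 of 17 genes had enough UMIs, and 5 were at least 2-fold higher in both libraries, namely Pax1, Pax9, Foxc1, Foxc2 and Uncx. Emx2, a homeobox gene required for the scapula, was lower, at 2.12 and 1.97 CPM against 6.49 and 6.47 CPM. Prrx1, a general limb and flank mesenchyme factor, was at 208 and 226 CPM against 211 and 299 CPM. The median log2 fold of this list was 0.85 in the library labelled f/f and 0.37 in the library labelled f/w, and that of all genes 0.04 and -0.03. Of the Fox list without Foxd1, 4 of 9 genes were higher (Foxd2, Foxp2, Foxc1 and Foxc2) and 1, Foxd3 of the neural crest, was lower, with medians of 1.28 and 0.75.

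**Figure D2:**
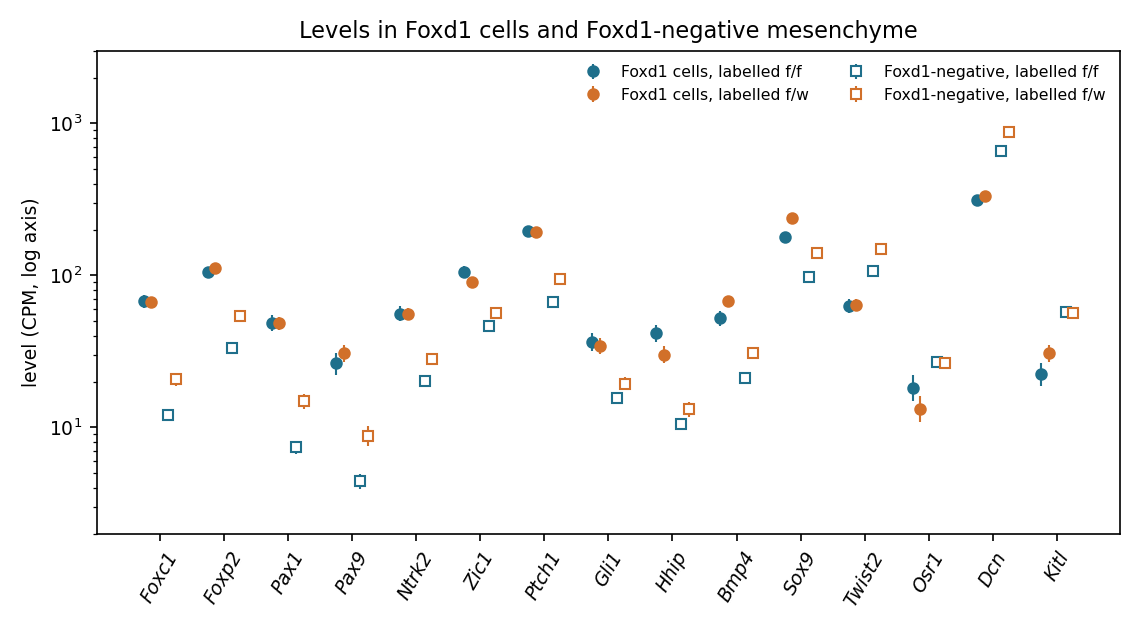
Level of 15 genes (CPM, log axis) in Foxd1 cells (filled circles) and in Foxd1-negative mesenchyme (open squares) of each library, with exact Poisson 95% intervals. Levels of Pax1, Foxc1, Ntrk2 and Ptch1 in the Foxd1 cells nearly coincided between the libraries and lay above the Foxd1-negative mesenchyme, while Twist2, Osr1, Dcn and Kitl lay below it.

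Among ligands, receptors and their targets, hedgehog response genes stood on the higher side. Ptch1 encodes the hedgehog receptor, and Hhip encodes another protein that binds the ligand. Both are also induced by the signal and so act as its negative feedback. Ptch1 was at 196 and 194 CPM in the members and at 67.3 and 94.9 CPM in the Foxd1-negative mesenchyme, 2.90-fold (2.716 to 3.105) and 2.04-fold (1.91 to 2.18). Hhip was 3.93-fold and 2.30-fold higher. Gli1, the transcription factor target, was at 36.6 and 34.5 CPM against 15.7 and 19.4 CPM, which passed 2-fold in the library labelled f/f only. No gene of this list was lower by 2-fold in both libraries. Those not induced by the signal differed by less than 2-fold, with Smo, the signal transducer, at 67.7 and 59.6 CPM against 59.0 and 50.7 CPM, and the co-receptor gene Gas1 lower, at 262 and 285 CPM against 346 and 382 CPM.

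In the Wnt and BMP list, 1 of 14 genes passed. Bmp4, a ligand of dorsal mesenchyme and perichondrium, was at 52.2 and 67.5 CPM against 21.1 and 30.8 CPM. In the neurotrophin list none of 8 genes passed in both libraries. Ntrk2 came nearest, with log2 folds of 1.48 (1.30 to 1.66) and 0.99 (0.81 to 1.17), and its ligand gene Bdnf was at 43.9 and 49.3 CPM against 40.8 and 45.1 CPM. Of the growth factor list none of 12 genes passed. Kitl, the stem cell factor gene, had the lowest fold of this list in the library labelled f/f, at 22.5 and 30.8 CPM against 57.9 and 56.9 CPM. No gene of the retinoic acid list passed either, 9 having been measured.

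Other genes high in the members encode secreted or membrane proteins. Ecrg4, an augurin precursor gene, was at 250 and 377 CPM against 57.8 and 110 CPM. Cldn11, a tight junction claudin, was 6.31-fold (4.50 to 8.77) and 3.94-fold (2.88 to 5.42) higher. Shisa3, which encodes an inhibitor of Wnt and FGF receptors, and Fxyd5, which encodes a regulator of the sodium pump, had log2 folds of 2.02 and 1.71, and of 2.08 and 1.67. Csmd3, Gbp6 and the predicted gene Gm16133 completed the 15 highest ranked. Cartilage genes stood on the same side, although the rule capped Acan, Col9a1 and Matn1 in both populations. All 8 genes of the cartilage list were higher in both libraries, as were 4002 of 12385 genes in all, with Sox9 at 178 and 240 CPM against 97.0 and 140 CPM, and 1, Matn4, passed 2-fold.

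The 101 lower genes included markers of superficial and fascial connective tissue. Cxcl14, a chemokine of skin fibroblasts, was at 15.6 and 49.3 CPM against 92.7 and 217 CPM. The small proteoglycan gene Dcn was at 312 and 334 CPM against 654 and 876 CPM. Clec3b, Ly6a and Pi16 of the 7 fascia genes, En1 and Dpp4 of the 8 dermal genes, and Kera of the 5 tendon genes also passed 2-fold. The median of the tendon list was above 0 in both libraries, at 0.35 and 0.25, and 3 of its 5 genes were higher in both. Egr1, its most abundant gene in the members, is also on the list of immediate early and stress genes used below. That list had the same median of 0.35 in the library labelled f/f. The dermal list had 2 genes higher and 4 lower in both libraries. Over all 12385 genes, 4002 were higher and 4052 lower in both, so these counts of direction describe the lists only. The dermal factor Twist2 was at 62.6 and 63.8 CPM against 107 and 148 CPM, and the muscle connective tissue factor Osr1 at 18.2 and 13.3 CPM against 27.1 and 26.6 CPM. The medians of the fascia list were -0.67 and -1.20, those of the dermal list -0.05 and -0.69, and those of the muscle connective tissue list -0.11 and -0.82. Of the 10 lowest ranked genes, 6 besides Cxcl14, Clec3b and Ly6a, namely Dmrt2, Cd36, Xirp2, Fabp4, Pbld1 and Veph1, had log2 folds from -5.90 to -1.95. The remaining one, Cpa6, had 0 UMIs in the members labelled f/f, which is at least 3.94-fold lower by a floor of 3 UMIs over that group. Dcn was the 1 of 18 matrix genes past 2-fold, and none of 30 Hox genes passed.

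The members were also set beside mesenchymal cells without Foxd1 that held at least 2 UMIs of Twist2 (1169 and 505 cells) or of Osr1 (386 and 117 cells). Foxc1 was at 3.802 and 4.36 CPM in the Twist2 cells and 4.40 and 7.69 CPM in the Osr1 cells, against 67.4 and 66.5 CPM in the members. Pax9 was at 1.52 and 2.18 CPM and at 3.64 and 1.92 CPM in these classes. Ntrk2 reached 18.8 and 17.8 CPM and 26.6 and 36.5 CPM, so it separated the members from the Osr1 cells least. In the kidney, Foxd1 stroma is accompanied by Tcf21, which had 0 and 1 UMIs in the members. Of the 9 genes of the renal list 7 had enough UMIs, and none passed 2-fold, where 1.21% of all genes did. This count does not set the list apart from other genes.

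**Figure D3:**
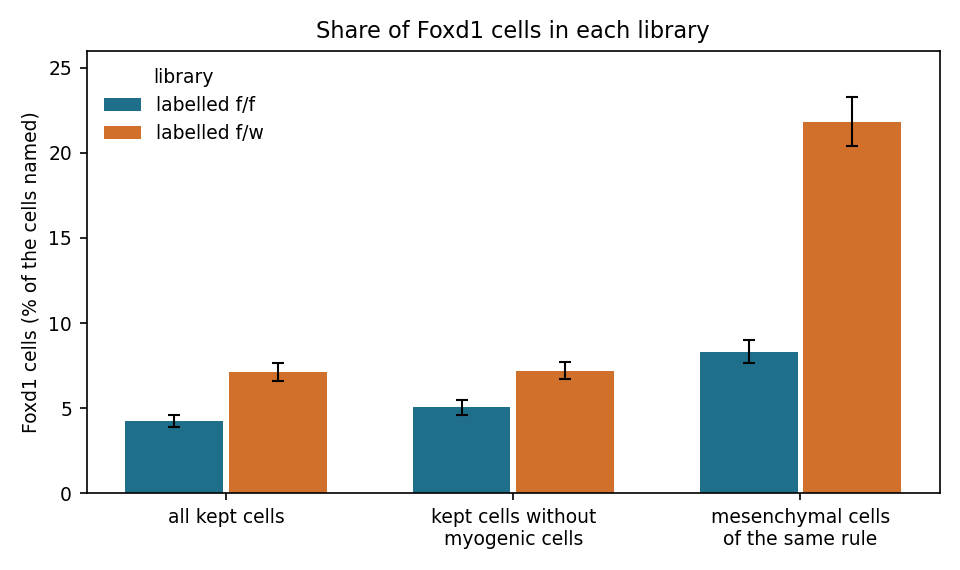
Foxd1 cells as a percent of all kept cells, of kept cells without myogenic cells and of the mesenchymal cells that met the rest of the rule, in each library, with exact 95% intervals. The library labelled f/w stood higher by every denominator, at 7.11%, 7.18% and 21.8% against 4.22%, 5.04% and 8.31%.

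How many of the sorted cells were Foxd1 cells was compared between the libraries. They made up 4.22% (3.87 to 4.60) of 12144 kept cells in the library labelled f/f and 7.11% (6.61 to 7.63) of 9942 in the library labelled f/w, a ratio of 1.68 (1.51 to 1.88). Myogenic cells (at least 3 UMIs of Pax7, Myf5, Myod1 and Myog together) numbered 2400 in the former and 129 in the latter, and a share of all cells depends on such numbers. Without them the ratio was 1.43 (1.28 to 1.59). Among the mesenchymal cells that met the rest of the rule the shares were 8.31% (7.63 to 9.03) of 6173 and 21.8% (20.4 to 23.3) of 3240, a ratio of 2.63 (2.36 to 2.92). This denominator can hold myogenic cells, since the rule sets no limit on their genes. The myogenic list summed to 226 CPM in the Foxd1-negative mesenchyme labelled f/f and 18.9 CPM in that labelled f/w. The mesenchymal ratio without such cells was not measured. The Foxd1 share was thus higher in the library labelled f/w, which is the control by its title and the mutant by the study's own headings. With cells thinned to 5000 UMIs before the rule, the mesenchymal ratio was 2.40. It stands on 1 library each, and the part of embryo pooling, dissection and sorting was not tested.

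Within the members, counting intervals of the ratio between libraries included 0 for Pax1, Pax9, Ntrk2, Foxc1 and Ptch1. The log2 ratio of f/w over f/f was 0.22 (-0.08 to 0.52) for Pax9, -0.02 (-0.21 to 0.18) for Foxc1 and -0.01 (-0.13 to 0.10) for Ptch1. The intervals for Pax1 and Ntrk2 ran from -0.23 to 0.23 and from -0.21 to 0.21. In the Foxd1-negative mesenchyme the same genes were higher in the library labelled f/w, Pax1 by 1.01 (0.80 to 1.22), Pax9 by 0.995, Foxc1 by 0.77, Ntrk2 by 0.49 and Ptch1 by 0.49. The smaller folds of members over Foxd1-negative cells in that library therefore came with higher levels in its Foxd1-negative cells, and not with lower levels in its members. The Foxd1-negative cells also differed in make-up, with the myogenic list at 226 CPM in those labelled f/f and 18.9 CPM in those labelled f/w. The part of this mix in their levels was not tested. Of 10591 genes with at least 50 UMIs in the members, 259 (2.45%) differed by at least 2-fold, 162 (1.53%) higher in the library labelled f/w and 97 (0.916%) higher in the library labelled f/f. In the Foxd1-negative mesenchyme the share was 7.24%, over 14285 genes and more UMIs.

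**Figure D4:**
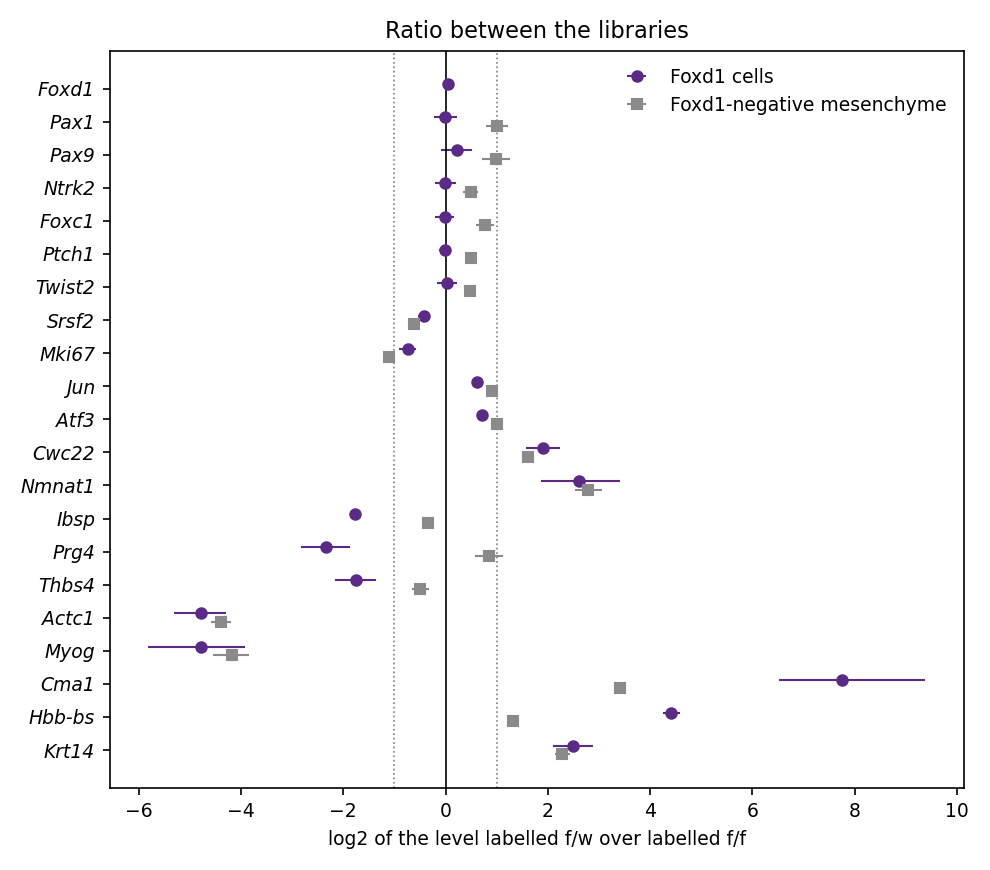
log2 ratio of levels, labelled f/w over labelled f/f (x axis), of 21 genes in Foxd1 cells (circles) and in Foxd1-negative mesenchyme (squares), with exact 95% intervals; dotted lines mark 2-fold. Pax1, Ntrk2, Foxc1 and Ptch1 lie at 0 in the Foxd1 cells and above 0 in the Foxd1-negative mesenchyme, and Actc1 and Myog lie below -4 in both.

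Most genes with the largest ratios belong to other cell types. Higher in the library labelled f/f were the muscle genes Actc1, Myog, Ttn, Tnnt1 and Rbm24. Myog, the myogenin gene, had 211 UMIs in 513 members against 11 in 707, a log2 ratio of -4.78 (-5.81 to -3.91), and -4.18 in the Foxd1-negative mesenchyme. All 4 measured genes of the myogenic list were on this side in the members. At least 3 UMIs of the list were held by 24 members labelled f/f and 2 labelled f/w, and the 5 members with the most held 41.6% and 19.0% of its UMIs. Its summed level was 90.9 and 7.76 CPM. The bone genes Ibsp and Ifitm5 (log2 ratios -1.76 and -1.33), the lubricin gene Prg4 (-2.34), Thbs4 (-1.75) and Acta2 (-1.14) made up the rest of the 10, and for Prg4 and Acta2 the Foxd1-negative mesenchyme had the opposite sign, at 0.85 and 0.28. After thinning before the rule the ratios of Ibsp, Ifitm5 and Acta2 turned to 1.09, 0.0564 and 0.0349, so their direction depended on the setting.

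Higher in the library labelled f/w were the mast cell genes Tpsb2, Cma1, Cpa3, Hdc and Srgn and the haemoglobin genes Hbb-bs, Hbb-bt, Hba-a1 and Hba-a2, followed by the epithelial gene Sfn. Cma1, a mast cell protease gene, had 5 UMIs in the members labelled f/f and 1542 in those labelled f/w, of which 5 members held 92.4%. Tpsb2 had 0 against 465, at least 108-fold by a floor of 3 UMIs over the group, and 5 members held 93.5% of the 465. The haemoglobin list summed to 113 CPM and 2216 CPM, with Hbb-bs the most abundant gene, and 5 of 707 members held 94.4% of its UMIs in the library labelled f/w. After thinning before the rule, the log2 ratio of Hbb-bs turned from 4.41 to -3.18. A few cells thus set the size of the haemoglobin ratios, and whether they are doublets was not tested. The ratio of Cma1 was 7.75 in the members, 3.59 after thinning before the rule and 4.52 without subclusters 8, 9, 11 and 13, and it was 3.41 (3.31 to 3.51) in the Foxd1-negative mesenchyme, so it lay on the same side in each. The immune list summed to 15.03 and 78.0 CPM with C1qb and Srgn as top genes and C1qa at 0 in the library labelled f/w, where 5 members held 68.6% of its UMIs. The epithelial list summed to 27.4 and 108 CPM, with Krt14 as top gene, and 5 members held 61.9% and 78.2% of its UMIs. The neuronal list summed to 150 and 276 CPM, the pericyte list to 82.0 and 54.7 CPM and the endothelial list to 23.2 and 28.2 CPM, with Stmn2, Cspg4 and Egfl7 as top genes. For the neuronal list 5 members held 60.5% and 49.9% of the UMIs.

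Further gene lists were compared between the libraries, in the members and in the Foxd1-negative mesenchyme. No list was tested, and 2.45% of all genes passed 2-fold in the members. Of the 8 cell cycle genes none passed 2-fold, with Mki67 at 124 and 74.1 CPM (log2 -0.74, -0.90 to -0.58). The list's median log2 ratio was -0.45 in the members and -0.96 in the Foxd1-negative mesenchyme. Over all genes these medians were -0.07 and 0.01. The subcluster led by mitotic genes did not follow the sign of the list's medians, at 10.7% of the members labelled f/f and 11.3% of those labelled f/w. Of the 13 immediate early and stress genes 1, Hspa1b, passed 2-fold, higher in the library labelled f/w. Jun was at 2019 and 3096 CPM and Atf3 at 594 and 971 CPM. The median of this list was 0.49 in the members and 0.84 in the Foxd1-negative mesenchyme. Such genes respond to tissue dissociation, and its part was not tested. Cwc22 and Nmnat1, whose levels vary with mouse strain, were at 15.6 and 58.2 CPM and at 3.01 and 18.2 CPM, so that genetic background cannot be told apart from the Srsf2 genotype in these libraries. None of 18 matrix genes passed 2-fold between the libraries, and their median in the members was -0.26.

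The members were then clustered by themselves to see how uniform they were. They fell into 13 subclusters of 13 to 367 cells, all with a median of 2 or 3 Foxd1 UMIs. These are descriptions of the cells clustered, and the genes given lead each subcluster by fold over the other members.

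The largest, subcluster 1, held 367 cells, 32.7% of the members labelled f/f and 28.1% of those labelled f/w. It was led by Sfrp2, a secreted Wnt modulator gene, C1qtnf3, Igf1, Ebf2 and Dlk1. Igf1, an insulin-like growth factor gene, was at 499.8 CPM against 153 CPM in the other members. Subcluster 1 held 44.0% of all Ntrk2 UMIs of the members, with Ntrk2 at 94.5 CPM. Subcluster 2 (171 cells) was led by Scube2, a carrier of secreted hedgehog, with Aspn, Clec11a, Fndc1 and Ecrg4, and made up 10.1% and 16.8% of the members of the libraries labelled f/f and f/w. Subcluster 3 (147 cells) was led by 4930523C07Rik, Sox5, Cnmd, Trim47 and Tgfbi, and had Col2a1, the main cartilage collagen, at 822 CPM against 251 CPM. Subcluster 4 (135 cells) was led by the mitotic genes Esco2, Tpx2, Top2a, Kif4 and Ube2c, and made up 10.7% of the members labelled f/f and 11.3% of those labelled f/w.

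The level of Pax1 was highest in 1 small subcluster. Subcluster 10 held 45 cells, 17 labelled f/f and 28 labelled f/w, and had Pax1 at 541 CPM against 36.1 CPM in the other members, with a UMI in 95.6% of its cells. It was led by Pax1, F2rl1, Rbp4, Smoc1 and Fzd4, and held 27.3% of all Pax1 UMIs and 16.1% of all Pax9 UMIs of the members, with Sox9 at 553 CPM. Subclusters 1, 4 and 3 held 23.1%, 15.6% and 13.6% of the Pax1 UMIs, and subcluster 1 held 36.9% of the Pax9 UMIs.

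The dermal gene Twist2 had its highest levels in 2 other subclusters. Subcluster 6 (64 cells) was led by Col7a1, Sphkap, Apcdd1, Frem1 and Fgf10 and had Twist2 at 452 CPM, and subcluster 12 (20 cells) had it at 649 CPM. Together these 84 cells held 59.3% of the Twist2 UMIs of the members. Apcdd1 encodes a Wnt inhibitor and Col7a1 and Frem1 encode proteins of the dermal-epidermal junction. Their Pax1 level was 7.10 and 22.8 CPM, while Crabp1 reached 1836 and 2140 CPM. Subcluster 12 was also led by haemoglobin genes, but the level of Hbb-bs was 24725 CPM in the cells labelled f/w and 41.7 CPM in those labelled f/f.

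Among the subclusters of more than 20 cells, 5 and 7 had the highest levels of Foxc1 and Zic1. Subcluster 5 (75 cells, 3.90% and 7.78% of the members) was led by Fxyd5, Lypd2, Igfbp2, Nppc and Ecrg4. Subcluster 7 (62 cells) was led by Slc6a13, a GABA and taurine transporter gene, Vtn, Aldh1a2, the retinoic acid synthesis enzyme, and Sparcl1. Foxc1 was at 127 and 157 CPM in these 2 subclusters and Zic1 at 172 and 325 CPM, while Pax1 was at 4.99 and 9.34 CPM. Cldn11 was at 129 CPM in subcluster 7 and at 7.18 CPM in the other members. No list used here marks such cells, so they were left unnamed.

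The remaining 4 subclusters carried markers of other lineages. Subcluster 8 (49 cells) was led by Ibsp, Ifitm5, Smpd3, Spp1 and Slc13a5, with Ibsp at 15773 CPM, and carried the osteoblast markers Ibsp, Spp1, Alpl and Runx2. Subcluster 9 (47 cells, 9 labelled f/f and 38 labelled f/w) was led by Sncg, Prph, Rtn1, Srgn and Stmn3 and carried all 4 neuronal markers, with Tubb3 at 832 CPM. Subcluster 11 (25 cells, 24 labelled f/f and 1 labelled f/w) was led by Actc1, Ttn, Myog, Tnnt1 and Vgll2. Subcluster 13 (13 cells) was led by the pericyte markers Rgs5, Abcc9 and Kcnj8 together with Vtn and Acta2. The median depth of subclusters 8, 9, 11 and 13 was 15920, 19881, 22967 and 10097 UMIs, against 9249 and 9686 for all members. Subcluster 12, which is not among these 4, had a median of 15748.5 UMIs. Of 29 members over 30000 UMIs, 19 lay in subclusters 8, 9, 11 and 13. Scrublet, a doublet caller, marked 416 of 12144 cells in the library labelled f/f, 20 of them members, and none of 9942 in the library labelled f/w, where it cannot be taken to have worked.

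**Figure D5:**
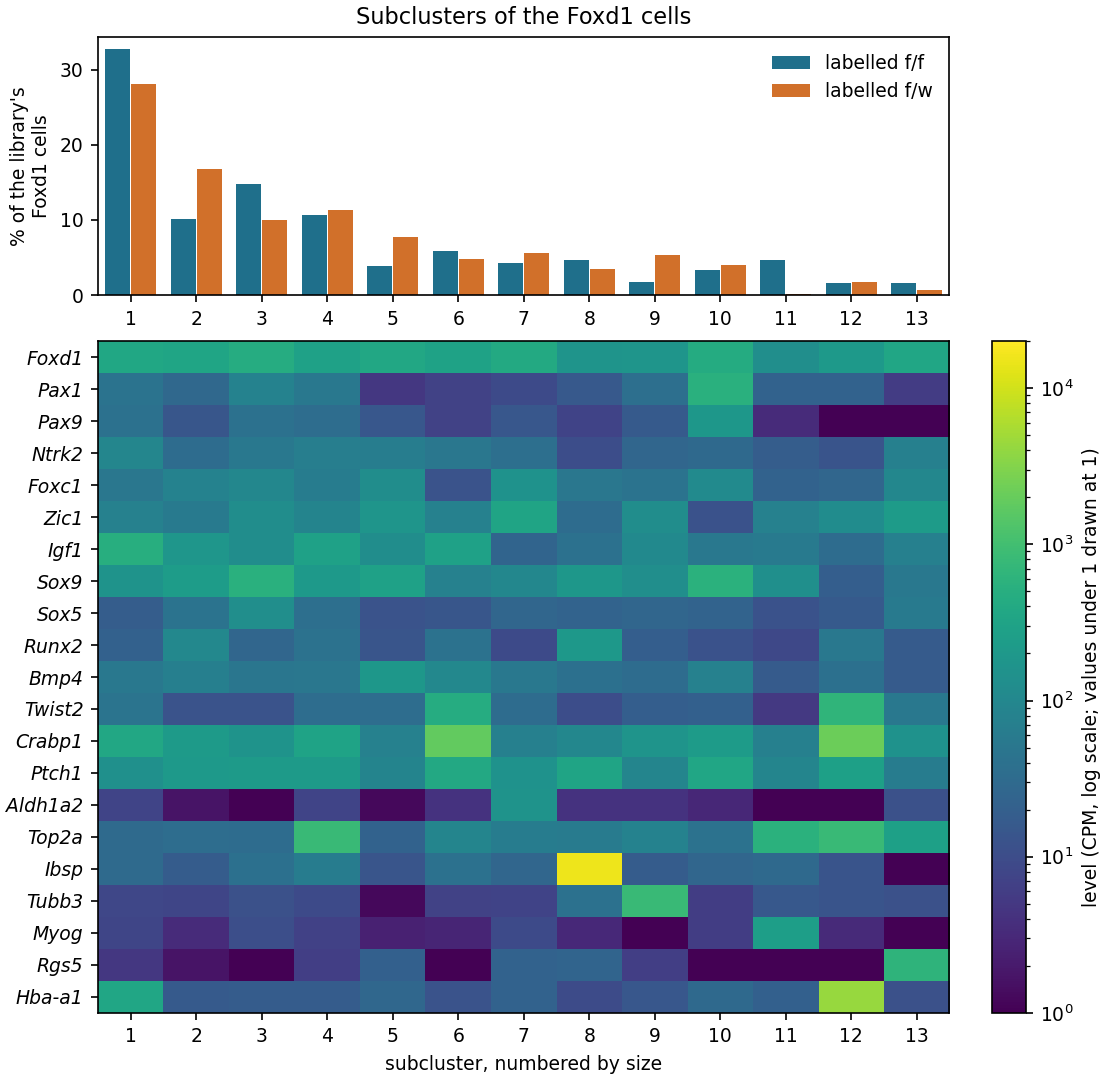
Top, each subcluster as a percent of the Foxd1 cells of each library. Bottom, level of 21 genes in each subcluster (CPM, colour on a log scale, both libraries together). Pax1 and Pax9 peak in subcluster 10, Twist2 in 6 and 12, Aldh1a2 in 7, and Ibsp, Tubb3, Myog and Rgs5 mark subclusters 8, 9, 11 and 13.

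These 134 cells made up 12.7% of the members labelled f/f and 9.76% of those labelled f/w. Without them the mesenchymal share of Foxd1 cells was 7.33% and 20.1%, a ratio of 2.74, so it did not rest on them. Between members and Foxd1-negative mesenchyme, 342 genes in place of 150 passed 2-fold, 65 of them higher in the members. The number of genes past 2-fold between libraries dropped from 259 to 131 (66 higher in the library labelled f/w and 65 in the library labelled f/f). The ratio of Ibsp turned from -1.76 to 0.25 and that of Acta2 from -1.14 to 1.19. Srsf2 was lower in the library labelled f/w in subcluster 4, at 204 CPM (179 to 231) against 270 CPM (233 to 311). In every other subcluster the intervals of the libraries overlapped. Its level was also lower in the library labelled f/w in each of these except subcluster 6 (233 against 211 CPM). Examples are subclusters 1 (148 against 183 CPM), 2 (123 against 158 CPM) and 3 (142 against 204 CPM).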

How the data were processed

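Sequencing reads were mapped to mm10 and UMIs were counted per gene, without introns, by the authors with Cell Ranger 5.0.0 per the matrix header (the submitters' processing notes list Cell Ranger 3.1.0 and Seurat 3.1.1), and both libraries were aggregated after down-sampling of reads. The deposited values are whole UMI counts for 32285 genes and 27766 barcodes. The suffix of a barcode gave its library. No cell annotation was used, and doublets were not removed. Run summaries gave saturations of 39.5% for the library labelled f/f and 45.9% for the library labelled f/w.

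Counts were summed over cells and scaled to CPM (Python 3.11.15, NumPy 2.4.6, SciPy 1.17.1, pandas 2.3.3). Genes entered with at least 50 UMIs over the populations compared and were called at 2-fold, in both libraries where these were 2 comparisons. Exact intervals were Clopper-Pearson, Poisson or binomial at 95%. Those of ratios of levels were tested on simulated Poisson counts. That is the model they assume, so the test does not cover genes whose UMIs lie in a few cells. Detection was compared after thinning to 5000 UMIs. Members were clustered by Leiden (leidenalg 0.10.2, igraph 0.11.9, scikit-learn 1.9.0) at resolution 0.5. Scrublet was run with scanpy 1.11.5. Gene positions are from GENCODE vM21 (GRCm38), in which 32235 of the 32285 identifiers were found.

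Genes were named by rule: the label's genes, members of fixed lists, the 15 highest and 10 lowest of members over Foxd1-negative cells ranked by the fold nearer 0 of the libraries (at least 100 UMIs), the 10 highest and 10 lowest between libraries (at least 200 UMIs), and 5 leading genes per subcluster. Members, lists and limits were chosen with earlier results of these data known. Limits, thinning, scaling and filters were varied. A few genes and 1 marker list that the rule covers are not reported here.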

Additional observations from a re-analysis of the deposited data

How the results depend on the processing

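The log2 ratio of the share of Foxd1 cells (labelled f/w over labelled f/f) ran from 0.69 to 0.85 among kept cells and from 1.26 to 1.49 among mesenchymal cells under the alternatives tried, other than a limit of 1 Foxd1 UMI, under which it was 0.51 and 1.15. Of 150 genes past 2-fold between members and Foxd1-negative mesenchyme, the count was 82 with a limit of 1 Foxd1 UMI, 60 with a minimum of 200 UMIs, which tests fewer genes, and 342 (65 higher, 277 lower) without subclusters 8, 9, 11 and 13, a choice made after seeing the data that took cells from the members only. The share of higher calls was 32.7%, 24.2% after thinning to 5000 UMIs and 24.7% with a mean over cells. Of 259 genes between libraries, the count was 80 (39 and 41) after thinning, 131 without these subclusters and 55 with a minimum of 200 UMIs, and higher calls in the library labelled f/w fell from 62.5% to 48.8% with thinning. Thinning before the rule turned the library ratios of Hbb-bt to -2.95, Hbb-bs to -3.18, Hba-a1 to -2.25, Hba-a2 to -2.35, Ibsp to 1.09, Ifitm5 to 0.0564, Acta2 to 0.0349 and Clec3b to 0.29. Leaving out the subclusters turned Ibsp to 0.25 and Acta2 to 1.19. The cause was not tested, beyond the few cells that hold these UMIs. Subclusters numbered 8 at resolution 0.3 and 16 at 1.0. Of 1280 values of single genes under these settings, 1040 stayed within their interval and 230 moved outside it. A change of sign was counted apart only for values past 2-fold as reported, and 10 of these changed sign. The share of members with a Pax1 UMI was 8.19% and 7.79% at 2000 UMIs. No paired analysis was possible because each genotype was 1 library. With 1 library each, no replicate could be left out, and genes under 50 UMIs were not compared.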
